A study of Mus musculus with 6 samples.

Results

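The guanylate-binding proteins (GBPs) and the immunity-related GTPases (IRGs) are GTPase families that interferons induce in mouse macrophages. Of these, 8 genes were followed here on 6 arrays, out of 34787 genes tested: Gbp2, Gbp3, Gbp5 and Gbp6 of the GBP family, and Iigp1, Igtp, Irgm1 and Irgm2 of the IRG family. They were taken by gene symbol, as every spot other than controls whose symbol in the scanner files is one of these names, which gave 12 probes. On build mm9, which the array files use, the probes of Gbp2, Gbp3 and Gbp5 lie on chromosome 3, that of Gbp2 at chr3:142300719-142300778, those of Gbp6 on chromosome 5, and those of Igtp, Irgm1 and Irgm2 on chromosome 11, that of Igtp at chr11:58020927-58020986. Bone marrow from wild-type female C57/B6 mice aged 6 to 8 weeks, as the sample labels give them, was cultured for 7 days in medium conditioned by L929 cells, which carries the growth factor that turns marrow cells into bone marrow-derived macrophages (BMDMs). The groups were untreated BMDMs, BMDMs given lipopolysaccharide (LPS, the Toll-like receptor 4 ligand) for 4 h, and BMDMs given a small-molecule inhibitor of the deubiquitinase USP7 at 10 µM from 30 min before the same LPS exposure (LPS+USP7i). The study's methods state an older age range and the J substrain. The LPS dose was 100 ng/ml in the series design, whereas the treatment text of the samples gives the same figure per µl, and whether the other groups received the inhibitor's solvent is not stated. Each group had 2 samples, described as independent experiments, each hybridised to a 1-colour Agilent array on which 42.2 to 46.3% of the spots were well above background.

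GBPs are large GTPases of the dynamin superfamily. They assemble on the membranes of vacuoles that hold pathogens and on bacteria that reach the cytosol, and they feed lipopolysaccharide of such bacteria to caspase-11. IRGs divide into effectors that load onto pathogen vacuoles, Iigp1 (Irga6) among them, and regulators that sit on the cell's own membranes and keep the effectors inactive there, namely Irgm1, Irgm2 and Igtp (Irgm3). In macrophages exposed to LPS, secreted type I interferon acts back on the cells. Promoters of interferon-induced genes commonly hold the interferon-stimulated response element (ISRE), the gamma-activated sequence (GAS) or both.

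Since the members move together, the RefSeq promoters (build GRCm38.p6) were searched for these elements in the 250 bases before the transcription start, the window drawn for each gene in the map of motif matches. A promoter was listed for 6 of the 8 members, with 2 starts for Gbp3. The ISRE core was searched as GAAANNGAAA and its reverse TTTCNNTTTC, and the GAS core as TTCNNNGAA, which is its own reverse. Of the 7 member promoters, 6 held an ISRE core, the exception being the second start of Gbp3, beside 2.98% of all 32851 promoters. A GAS core was present in 3 of the 7 (Gbp5, Igtp and Irgm2), beside 7.02% of all, and the κB motif in that of Gbp5 alone, beside 7.25% of all. Among 9 promoters of other GBP and IRG genes, 5 held an ISRE core and 4 a GAS core. These are matches of letters only, and occupancy by a factor was not measured. Some of these promoters resemble each other in sequence around the matches, as those of Igtp and Irgm2 do, and those of Tgtp1 and Tgtp2. The counts are therefore not of separate instances. The bases before the start are shown for Gbp2, Gbp5, Igtp and Irgm1, which differ in where the match lies and include the members with the highest and the lowest log2 rise after LPS by their brightest probes. Sequences run 5′ to 3′ on the coding strand and capitals mark the ISRE core. They lie at chr3:142620413-142620662 (plus strand), chr3:142496684-142496933 (plus), chr11:58199306-58199555 (plus) and chr11:48871421-48871670 (minus).
Gbp2: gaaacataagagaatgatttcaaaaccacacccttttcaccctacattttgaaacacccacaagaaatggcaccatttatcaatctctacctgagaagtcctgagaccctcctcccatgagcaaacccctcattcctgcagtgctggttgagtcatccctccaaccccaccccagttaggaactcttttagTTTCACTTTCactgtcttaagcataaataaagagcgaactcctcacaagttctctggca
Gbp5: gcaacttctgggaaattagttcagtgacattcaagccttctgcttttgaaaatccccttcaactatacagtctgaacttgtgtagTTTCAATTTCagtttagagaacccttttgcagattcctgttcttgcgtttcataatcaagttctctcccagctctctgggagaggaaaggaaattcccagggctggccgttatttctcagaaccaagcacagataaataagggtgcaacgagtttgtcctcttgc
Igtp: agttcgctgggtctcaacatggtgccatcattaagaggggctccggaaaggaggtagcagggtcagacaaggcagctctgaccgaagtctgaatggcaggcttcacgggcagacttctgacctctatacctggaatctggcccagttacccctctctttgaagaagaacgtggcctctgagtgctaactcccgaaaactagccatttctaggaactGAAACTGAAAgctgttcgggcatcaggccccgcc
Irgm1: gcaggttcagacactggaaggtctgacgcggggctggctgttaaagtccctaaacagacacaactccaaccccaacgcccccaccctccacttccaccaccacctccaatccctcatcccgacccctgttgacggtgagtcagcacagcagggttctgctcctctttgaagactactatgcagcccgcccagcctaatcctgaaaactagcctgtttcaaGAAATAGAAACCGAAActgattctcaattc
In Gbp2 the match began 59 bases before the start. In Gbp5 it began 165 bases before it, with GAS cores at 245 and 52 bases. Igtp held the match at 34 bases, next to a GAS core at 45. The matches of Irgm1, at 30 and 24 bases, overlap, as do those of Gbp3 at 45 and 39 bases. In Irgm2 the ISRE core began at 64 bases and the GAS core at 75.

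**Figure D1:**
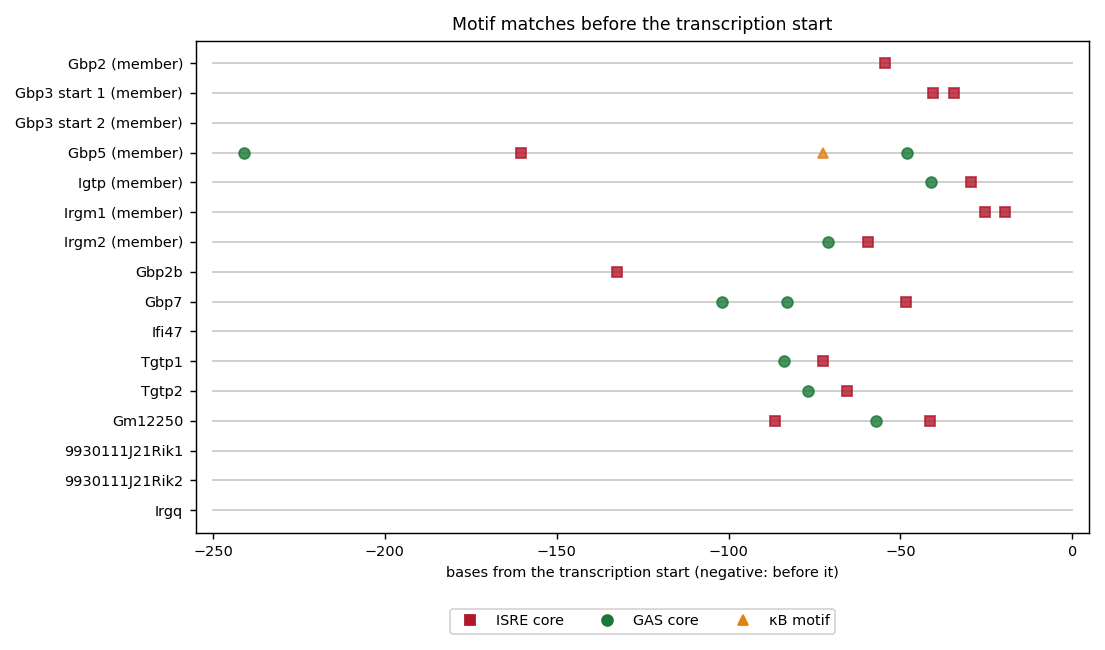
Matches to the ISRE core, the GAS core and the κB motif in the 250 bases before the transcription start of the GBP and IRG genes with a RefSeq promoter, plotted by distance from the start in bases, 1 line per promoter. An ISRE core lies on 6 of the 7 member lines, all but the second start of Gbp3.

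The cells were first set against markers of their label. All 8 macrophage markers measured, among them Csf1r, Cd68, Adgre1 and Itgam, were well above background on all 6 arrays, and Csf1r had the brightest probe, which does not rank transcripts. Their summed linear signal was 729300 and 721300 in untreated cells, 723700 and 748600 in LPS, and 628300 and 587300 in LPS+USP7i. Of the T cell list, 3 of 6 genes were above background on every array, the brightest probe being that of Cd4, while Cd3g and Cd8a were not above it on any. Its summed signal was 2285 and 2108 in untreated cells, 4270 and 4420 in LPS, and 2700 and 2188 in LPS+USP7i, a move along with the GTPases in which 1 gene, the kinase gene Lck, passed the threshold upward after LPS and downward when the inhibitor was added. Both calls were also made for the macrophage marker Cd14 and for the NK cell marker Klrk1, which was not above background on any array. The macrophage marker Fcgr1 was called lower in LPS+USP7i than in either other group and the B cell marker Pax5, above background there alone, higher, while Itgam was called lower after LPS. These calls are for the brightest probe of each gene, and other probes of Pax5 and Itgam were not called there. A second probe of Pax5 and one of Cd4 were not above background on any array. None of 5 NK cell, 5 fibroblast and 4 erythroid markers was above background on all arrays, against 2 of 5 B cell, 5 of 6 neutrophil and 1 of 5 dendritic cell markers. Zbtb46, of dendritic cells, and Lck were called higher than in untreated cells both in LPS and in LPS+USP7i, while Clec9a, Flt3 and Xcr1 were not above background on any array. The brightest probe of that list was that of Siglech, and its summed signal was 45050 and 38060 in untreated cells, 25340 and 24860 in LPS, and 51410 and 34660 in LPS+USP7i. That of the NK cell list, brightest for Ncr1 and with Eomes and Gzma not above background on any array, was 45.9 and 62.4, then 78.5 and 224.2, and then 47.1 and 89.8 in the same order. The part of these markers and their cell types in the results was not tested. In bulk RNA, fewer cells of a type and less RNA per cell cannot be told apart.

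All 12 member probes were well above background on all 6 arrays. Values are quantile-normalized log2 signals of a probe, which can be compared between arrays but not between probes, and a gene is given by the probe with the highest mean over the arrays. Gbp2, a prenylated GBP that targets pathogen vacuoles, was at 10.14 and 9.42 in the untreated samples, 16.20 and 16.08 in LPS, and 13.36 and 14.20 in LPS+USP7i. The 3 groups did not overlap, with LPS+USP7i between the others. Gbp3 was at 9.68 and 9.28 in untreated cells, 14.98 and 14.90 in LPS, and 12.86 and 13.53 in LPS+USP7i, again without overlap. Gbp5, a prenylated GBP, was at 7.26 and 6.36 without treatment, rose to 15.78 and 15.85 in LPS and stood at 13.63 and 14.35 in LPS+USP7i. Its LPS+USP7i values lay closer to those of LPS than to those of untreated cells. For Gbp6, untreated cells gave 8.00 and 7.13, LPS 12.85 and 12.62, and LPS+USP7i 9.79 and 10.36, which placed the inhibitor samples about midway.

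The IRG effector Iigp1 was at 8.23 and 7.41 in untreated cells, 13.15 and 13.13 in LPS, and 9.61 and 10.49 in LPS+USP7i. Here too the LPS+USP7i samples lay between the other groups. The regulator Igtp, read by 10 spots on each array whose SD was 0.041 to 0.086, was at 12.33 and 11.79 in untreated cells, 16.01 and 15.98 in LPS, and 14.38 and 15.16 in LPS+USP7i. The regulator Irgm1, required for control of intracellular bacteria in mice, already gave 13.34 and 13.01 without treatment, against 16.00 and 16.05 in LPS and 14.67 and 15.18 in LPS+USP7i. Irgm2 was at 12.17 and 11.60 in untreated cells, 14.97 and 14.84 in LPS, and 13.24 and 13.82 in LPS+USP7i. For each of the 8 members the order was therefore untreated, LPS+USP7i, LPS from lowest to highest, and no sample of 1 group reached the range of another. Replicate 2 was the lower untreated sample and the higher LPS+USP7i sample for all 8. The shares of all genes with such an order or such a replicate difference are not given here. With 2 arrays a group, separation alone is not a call. Csf1r did not overlap between untreated cells and LPS either, at a log2 difference of -0.27 (limma, adjusted p = 0.316).

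**Figure D2:**
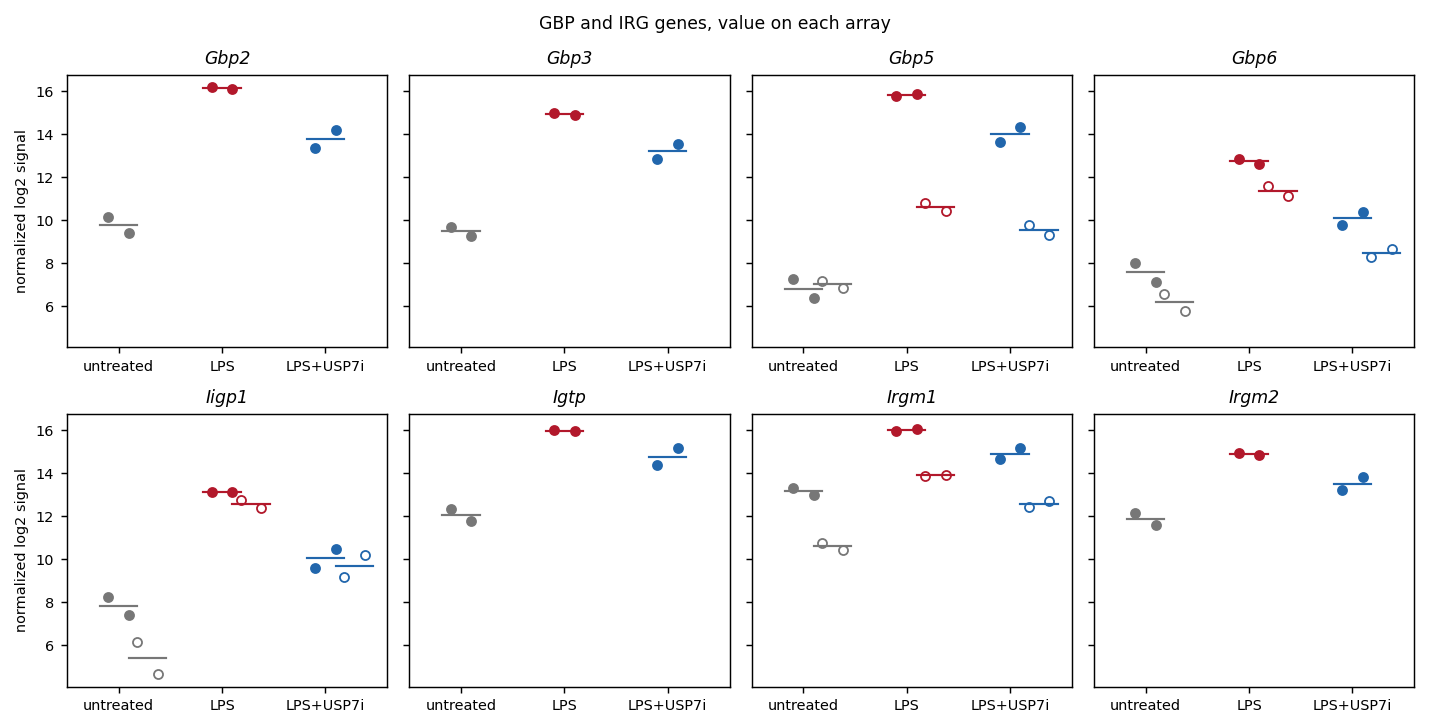
Quantile-normalized log2 signal of the 8 members on each of the 6 arrays, with a bar at the mean of each group (n = 2). Filled points are the probe with the highest mean and open points the second probe where a gene has one, and in each panel the LPS+USP7i points lie between untreated and LPS.

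LPS raised all 8 members at an adjusted p under 0.05 in limma, where 7.98% of all genes tested were called higher and 12.8% lower. The median log2 difference was 5.24 over the members and 0.0016 over all genes. Gbp5 rose 513-fold by its brightest probe (95% interval 7.87 to 10.13 on the log2 scale, adjusted p = 0.00311), from 6.81 ± 0.64 to 15.82 ± 0.05 (SD, n = 2). The rise of Gbp2 was 6.36, or 82.1-fold (5.27 to 7.45, adjusted p = 0.00425), and that of Gbp3 44.0-fold (adjusted p = 0.00345). Gbp6 and Iigp1 rose 35.9-fold and 39.9-fold (adjusted p = 0.00525 and 0.00613). The regulators rose less on the log2 scale, Igtp by 3.93, Irgm2 by 3.02 and Irgm1 by 2.85 (adjusted p = 0.00684, 0.00851 and 0.00586), although a difference between effectors and regulators was not tested. Second probes rose as well, Iigp1 by 7.19, Gbp6 by 5.20 and Irgm1 by 3.30. The 2 probes of Gbp5 differed in size, with 513-fold for the brighter and 12.0-fold for the other, which is annotated to an Ensembl transcript. With the mean of a gene's probes in place of the brightest, the log2 rise of Gbp5 was 6.29, beside 6.36 for Gbp2 and 6.26 for Iigp1. One Gbp6 probe also lists a Gbp10 transcript, and the Gbp10 probe one of Gbp6, so these 2 genes may share signal. Scaling each array to its 75th percentile in place of quantile normalization put the median of all genes at 0.40 and moved the calls over all genes from 2775 higher and 4443 lower to 12150 and 4048, with all 8 members higher under both.

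In cells given the USP7 inhibitor before LPS, the 8 members gave lower means than with LPS alone, and 4 of them passed the threshold, Gbp2, Gbp3, Gbp6 and Iigp1, where 4.27% of all genes were called lower and 5.52% higher. Over the members the median log2 difference was -1.78, against 0.0009 over all genes. Iigp1 fell, with a log2 difference of -3.09 (95% interval -4.27 to -1.91, adjusted p = 0.0328), which is 8.51-fold lower. Gbp6 was 6.29-fold lower (-2.65, SE 0.38, adjusted p = 0.0349), Gbp2 5.12-fold (-2.36, SE 0.39, adjusted p = 0.0471) and Gbp3 3.35-fold (-1.74, SE 0.28, adjusted p = 0.0437). Gbp5 and the 3 regulators did not pass, at -1.83 for Gbp5 (adjusted p = 0.0832), -1.37 for Irgm2 (0.0759), -1.22 for Igtp (0.13) and -1.10 for Irgm1 (0.0679), and each of their 95% intervals lay below 0. Probes of a gene differed in call for Irgm1, whose second probe passed at -1.34 (adjusted p = 0.0285), and for Iigp1, whose second probe missed at -2.88 (0.0862). These calls depend on few arrays. Fitting the LPS and LPS+USP7i arrays alone left 0 of the members and 0 of all genes, and the replicate number as a block left 0 members. Leaving out either untreated array gives the same fit here as those 2 groups alone, since a lone untreated sample adds no spread. With 1 array left out, the median log2 difference over the members ran from -2.13 to -1.44. The mean of a gene's probes gave 5, where Iigp1 missed (adjusted p = 0.0539), the log2 values as deposited gave 6, and leaving out dim probes or normexp background correction gave 8. With 2 samples a group an exact two-sided permutation test cannot go below 0.333. The p-values here rest on limma's model, in which a gene's own spread over the 3 groups gave 3 residual degrees of freedom. The spread shared across genes added 1.05, and the p-values describe these samples only.

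**Figure D3:**
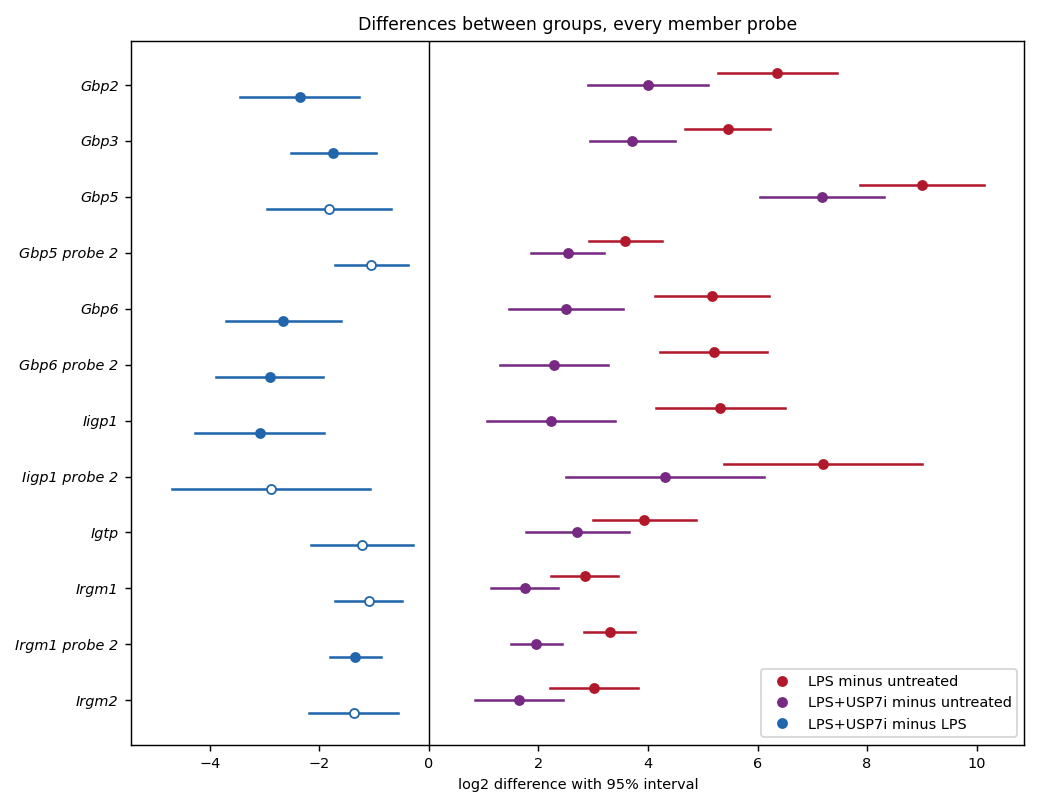
Log2 differences of every member probe with 95% intervals for LPS minus untreated, LPS+USP7i minus untreated and LPS+USP7i minus LPS, filled where the adjusted p is under 0.05. All intervals of the first comparison lie above 0, and those of LPS+USP7i minus LPS lie below 0 with open points for Gbp5, Igtp, Irgm2, the first probe of Irgm1 and the second of Iigp1.

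Compared with untreated cells, all 8 members were higher in LPS+USP7i as well, where 6.16% of all genes were called higher and 8.71% lower. This comparison shares the untreated arrays with LPS against untreated and the LPS+USP7i arrays with the preceding one. The median was 2.61 over the members and -0.0021 over all genes. Gbp5 was 144-fold higher (7.18 on the log2 scale, adjusted p = 0.00621), beside 513-fold with LPS alone. On the log2 scale Gbp2 stood at 4.00 beside 6.36, and Gbp3 at 3.72 beside 5.46 (adjusted p = 0.0124 and 0.00828 for LPS+USP7i). For Gbp6 the pair was 2.51 and 5.16, and for Iigp1 2.23 and 5.32, the latter with an adjusted p of 0.0482 in LPS+USP7i. Igtp, Irgm1 and Irgm2 remained 6.56-, 3.37- and 3.12-fold above untreated cells (adjusted p = 0.019, 0.0195 and 0.0406). Without untreated replicate 2 the count fell to 1, Gbp5, and without LPS replicate 1 or 2, LPS+USP7i replicate 1 or 2 or untreated replicate 1 it was 3 to 5. With the replicate number as a block it was 5, where Gbp6, Iigp1 and Irgm2 missed, and with only the 2 groups compared it was 3. Under 75th percentile scaling the median of all genes was 0.44 and the calls went from 2144 higher and 3031 lower to 12182 and 3354, with all 8 members still called higher.

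Probes for 19 further GBP, IRG and related genes were measured, among them Gvin1, a very large inducible GTPase of a separate family. LPS raised 14 of them, lowered 0 and left 5 not called, beside 7.98% of all genes higher and 12.8% lower, with a median log2 difference of 3.55. Without LPS replicate 1, 9 of the 14 lost the call (adjusted p = 0.0555 to 0.0932), among them Gbp4 (0.0558), Tgtp2 (0.0692) and Gm4841 (0.0783). Gbp4 rose by 6.50 (adjusted p = 0.00905) and Gbp7 by 5.40 (adjusted p = 0.00345). A second Gbp7 probe was not above background on any array. Of the IRG effectors, Tgtp2 (Irgb6) rose by 4.68 and Gm12250 (Irgb10) by 4.63 (adjusted p = 0.0122 and 0.00471), the former not called without LPS replicate 2 either (0.0605). The probes of Tgtp1 and Tgtp2 list each other's transcripts. For a probe near background on both arrays of a group, its fold is a lower limit: each dim array was given its own value or, if that was higher, the weakest signal of any probe well above background on that array, and the bright group was divided by the result. So Gm4841 was at least 14.1-fold higher in LPS (adjusted p = 0.0146), a call also lost without LPS replicate 2 (0.061) or either untreated array (0.0794 and 0.0829). Among the 5 not called, Irgc1 was not above background on any array and the brighter Gbp2b probe on 1 of the 2 LPS arrays only. Gbp2b was called higher after LPS under 75th percentile scaling (adjusted p = 0.0187) and with the log2 values as deposited (0.0326). Its LPS values differed widely, at 3.41 and 5.06, and its log2 rise was 2.89 without LPS replicate 1 and 1.24 without LPS replicate 2. Its second probe was not above background on any array. That probe was called higher after LPS (adjusted p = 0.00256) and lower in LPS+USP7i against LPS (0.00987).

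In LPS+USP7i against LPS, 7 of these 19 genes fell and 0 rose, beside 4.27% and 5.52% of all genes, with a median of -1.99 (-1.89 with dim probes at their bound). Gbp11 fell by 3.24, Gbp10 by 2.79 and Gbp9 by 2.59 on the log2 scale (adjusted p = 0.0431, 0.0223 and 0.0422). Gbp7 fell by 2.05 and Gm12250 by 1.84 (adjusted p = 0.0318 and 0.0485), and Gvin1 and 9930111J21Rik1 also passed. All 7 falls were lost with only the 2 groups compared or without LPS+USP7i replicate 1, and those of Gbp7, Gbp9, Gbp11 and Gm12250 with the replicate block (adjusted p = 0.0664, 0.0698, 0.0785 and 0.0897). Gbp4, at -3.45, did not (adjusted p = 0.0596). With normexp 7 more passed, Gbp4, Gm4841, Gm4951, Ifi47, Tgtp1, Tgtp2 and 9930111J21Rik2 (adjusted p = 0.00171 to 0.0356), and the same 7 with dim probes left out. Against untreated cells, 3 of the 19 were called higher in LPS+USP7i, Gbp7, Gm12250 and 9930111J21Rik2, and 0 lower, beside 6.16% and 8.71% of all genes, with a median of 0.91 (0.63 with bounds). Under 75th percentile scaling Gbp4, Gm4841, Ifi47, Tgtp1 and Tgtp2 passed there too (adjusted p = 0.0208, 0.0208, 0.0164, 0.0165 and 0.0125), all but Gm4841 also with normexp, and without untreated replicate 2 none of the 3 did. Gbp9, Gbp10 and Gbp11 were 0.47, 0.63 and 0.91 from untreated cells there, none of them called (adjusted p = 0.598, 0.328 and 0.427), and the sign for Gbp9 turned without untreated replicate 2.

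**Figure D4:**
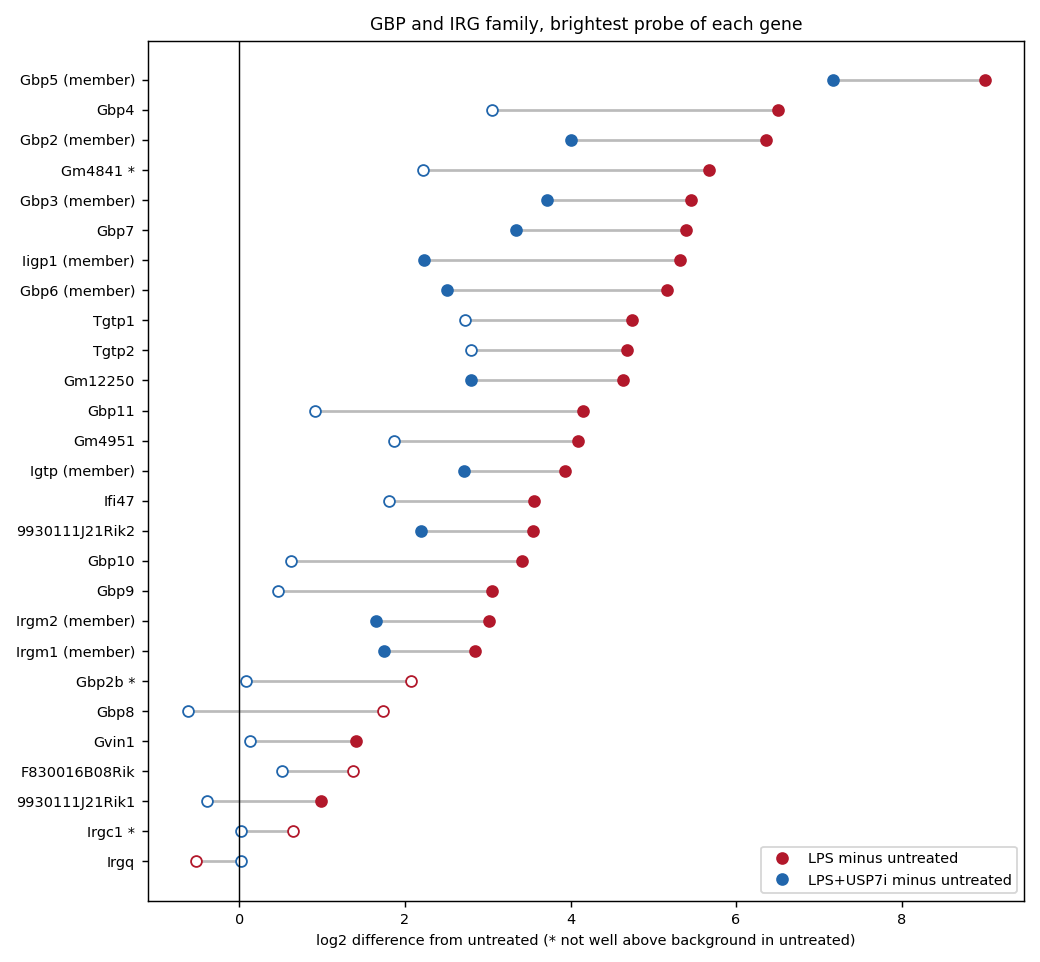
Log2 difference from untreated cells for LPS and for LPS+USP7i, 1 line per GBP or IRG gene by its brightest probe, filled where the adjusted p is under 0.05 and ordered by the LPS value. The 8 members are filled in both comparisons, Gbp5 lies farthest right, and the asterisk marks genes whose untreated arrays did not rise well above background, so their fitted differences are no bound.

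Mx1 and Mx2, dynamin-like interferon-induced GTPases outside these families, rose by 6.00 and 5.77 after LPS (adjusted p = 0.0039 and 0.00261). In LPS+USP7i against LPS they gave -1.26 and -0.61 and did not pass (adjusted p = 0.123 and 0.19), although Mx1 did with normexp (0.0326) and with dim probes left out (0.0365). They were called higher than in untreated cells, at 4.74 and 5.17 (adjusted p = 0.00779 and 0.0046).

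By the root mean square difference of log2 values, each gene centred on its mean over the 6 arrays, the 5 genes nearest to the mean profile of the 8 members were taken from 12071 candidates outside both families that were well above background on both LPS arrays. Those above background in untreated cells as well were Ifit2 (0.187), an interferon-induced antiviral gene, Icam1 (0.206), an adhesion molecule of leukocytes, Batf2 (0.229), a basic leucine zipper factor, and Filip1l (0.235). Of the members themselves, Gbp3 lay at 0.218 from the mean profile and Gbp5, the farthest, at 1.85. Since these genes were chosen for their profile on the same arrays, no test of them is given here. Batf2 is tested below as a gene of the interferon pathway list, which was fixed without regard to this distance, although its nearness to the members and that test use the same values.

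Genes that carry the interferon signal to this family were read from a list of 22. LPS raised 13 of them and lowered 1, LPS+USP7i lowered 9 and raised 0 against LPS, and against untreated cells 7 were higher and 5 lower in LPS+USP7i. Of all genes, 7.98% were higher and 12.8% lower after LPS, 5.52% higher and 4.27% lower with the inhibitor against LPS alone, and 6.16% higher and 8.71% lower in LPS+USP7i than in untreated cells. The medians were 1.14, -0.80 and 0.26. Ifnb1, which encodes interferon beta, was at 4.80 and 4.34 in untreated cells, 12.01 and 12.85 in LPS, and 12.87 and 12.52 in LPS+USP7i. The treated groups overlapped, with a difference of 0.26 (95% interval -0.73 to 1.26, adjusted p = 0.766) whose sign turned without LPS replicate 1. Against untreated cells, where 1 of 2 arrays was above background, Ifnb1 rose by 7.86 in LPS and 8.12 in LPS+USP7i (adjusted p = 0.00317 and 0.00509). Ifng, the gene of interferon gamma, was not above background on any array.

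Of the factors that bind interferon elements, Irf8, a partner of other interferon regulatory factors in myeloid cells, was at 14.17 and 14.11 in untreated cells, 15.25 and 15.87 in LPS, and 12.51 and 12.35 in LPS+USP7i, below both other groups. It rose by 1.42 after LPS and fell by 3.13 in LPS+USP7i against LPS (adjusted p = 0.0267 and 0.0144). The rise missed with the replicate block (adjusted p = 0.0518), with only the 2 groups compared or without either LPS+USP7i array (0.0651), and without untreated replicate 1 (0.114) or 2 (0.127), and the fall missed with only the 2 groups compared or without either untreated array (0.0622). Batf2 rose by 4.69 and fell by 1.89 (adjusted p = 0.00383 and 0.0335), the fall being lost with the replicate block (0.0664), with only the 2 groups compared (0.092) and in each refit without 1 array other than LPS+USP7i replicate 2. Irf1, a factor known to act at GBP promoters, rose by 3.90 (adjusted p = 0.00446), and its probes differed in LPS+USP7i against LPS, at -0.52 for the brighter (adjusted p = 0.371) and -1.83 for the other (0.012). Stat2 and Irf7 rose by 1.04 and 1.98 (adjusted p = 0.0151 and 0.0301) and were -0.56 and -1.09 from LPS in LPS+USP7i, neither called (adjusted p = 0.0943 and 0.162), although Stat2 was called lower with normexp (0.0334) and with dim probes left out (0.0496). The rise of Stat2 was lost without LPS replicate 1 (0.0765) or 2 (0.0598), and that of Irf7 with only the 2 groups compared (0.075) and without any 1 array. Irf9 gave 0.23 and 0.08, neither called (adjusted p = 0.339 and 0.807). Under 75th percentile scaling it was called higher in both treated groups than in untreated cells (adjusted p = 0.0178 in LPS and 0.0333 in LPS+USP7i), and the second difference turned to -0.12. Socs1, a brake on the JAK kinases, rose by 7.45 after LPS (adjusted p = 0.00338), and its -1.72 in LPS+USP7i against LPS did not pass (adjusted p = 0.0784). It did with normexp (0.0098), dim probes left out (0.0195), the log2 values as deposited (0.0342) and without LPS+USP7i replicate 1 (0.0379) or 2 (0.0241). Usp7 itself, the gene of the inhibitor's target, gave 0.44, -0.14 and 0.30 in the 3 comparisons, none of them called (adjusted p = 0.104, 0.627 and 0.258). After LPS it was called higher with 75th percentile scaling (adjusted p = 0.0211), normexp (0.0269), and only the 2 groups compared or without either LPS+USP7i array (0.0286). It was also called higher in LPS+USP7i against untreated cells without LPS+USP7i replicate 1 (0.0484). Its second probe gave -0.11, 0.14 and 0.03, none of them called.

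**Figure D5:**
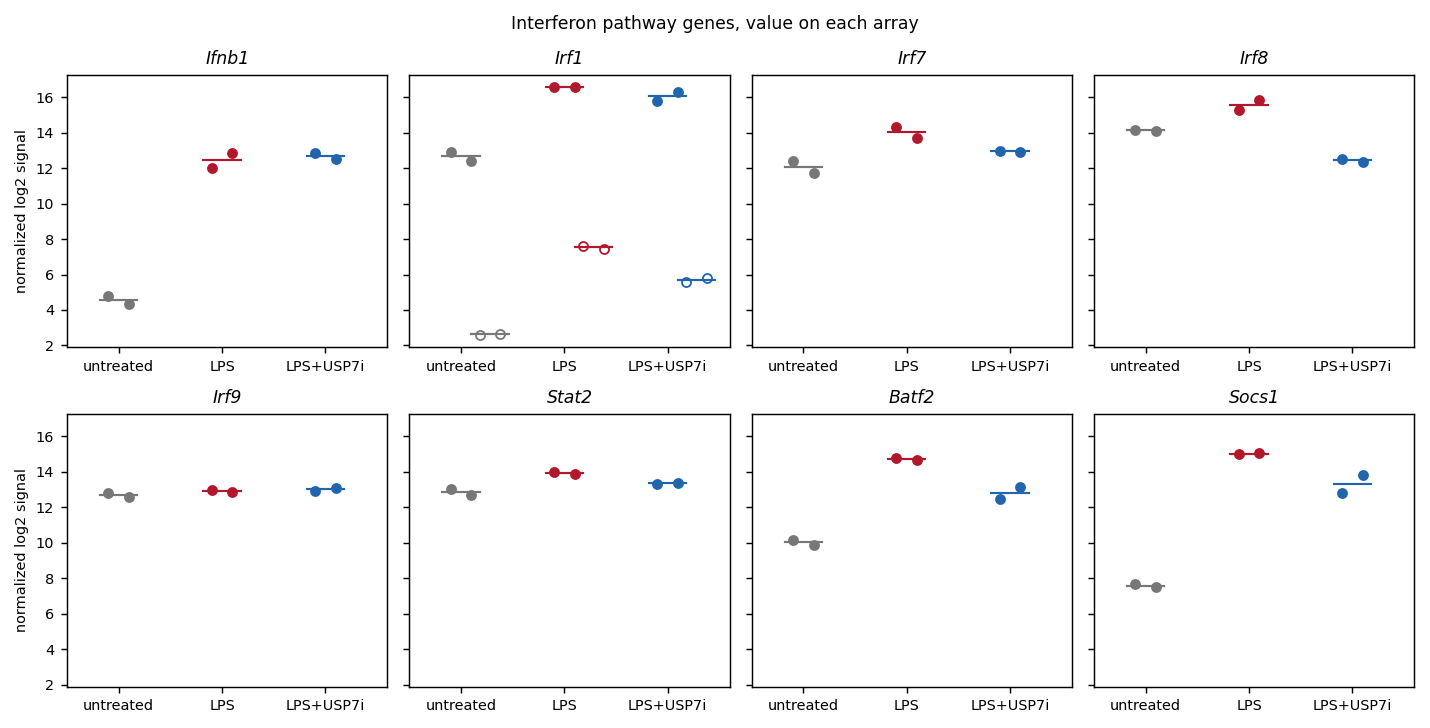
Quantile-normalized log2 signal of 8 interferon pathway genes on each of the 6 arrays, with a bar at the mean of each group (n = 2), filled for the probe with the highest mean and open for any other. The Ifnb1 points of LPS and LPS+USP7i overlap, and the Irf8 points of LPS+USP7i lie below both other groups.

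Caspase-11 (Casp4) and the inflammasome proteins act downstream of GBPs. LPS raised 8 of 11 genes on this list and lowered 0, LPS+USP7i lowered 5 and raised 0 against LPS, and against untreated cells 4 were higher and 1 lower, with medians of 1.29, -1.04 and 0.19. The shares of all genes called were 7.98% higher and 12.8% lower, 5.52% and 4.27%, and 6.16% and 8.71% in the same order of comparisons. Casp4 rose by 3.34 after LPS (adjusted p = 0.0043) and its probes were -1.04 and -1.04 in LPS+USP7i against LPS, of which the second passed (adjusted p = 0.0673 and 0.0313). The first passed with normexp (0.0118), dim probes left out (0.0204), 75th percentile scaling (0.0414) and a trended prior (0.049). Aim2, a sensor of cytosolic DNA, rose by 2.22 and fell by 1.99 (adjusted p = 0.0218 and 0.0471). Gsdmd, the pore former that inflammatory caspases cleave, rose by 0.87 and fell by 0.98 (adjusted p = 0.0272 and 0.0364). The rise of Aim2 was lost without any 1 of the untreated and LPS arrays (adjusted p = 0.0808 to 0.106), and its fall with the block (0.0503) and in each refit without 1 array other than LPS+USP7i replicate 2. For Gsdmd the rise was lost with only the 2 groups compared (0.0643) and without any 1 array except LPS replicate 2, and the fall with only the 2 groups compared (0.0876) and without any 1 array. Casp1 rose by 1.29 (adjusted p = 0.00534) and did not pass in LPS+USP7i against LPS, at -0.51 (0.0592), but did with normexp (0.0172), dim probes left out (0.0426) and without LPS+USP7i replicate 2 (0.0472). The sensor gene Nlrp3 rose by 5.04 (adjusted p = 0.00324) and stood at -0.28 in LPS+USP7i against LPS (adjusted p = 0.605).

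The autophagy and vacuole genes whose products are known to help place GBPs and IRGs on membranes moved in both directions. Of 22 such genes, LPS raised 3 and lowered 6, LPS+USP7i raised 5 and lowered 1 against LPS, and against untreated cells 5 were higher and 2 lower. Over all genes these shares were 7.98% and 12.8%, 5.52% and 4.27%, and 6.16% and 8.71%, so that 1 of 22 lower against LPS and 2 of 22 lower against untreated cells are near the shares of all genes. The medians were -0.03, 0.16 and 0.10. After LPS, Trim21 and Sqstm1 rose by 3.40 and 1.68 (adjusted p = 0.00737 and 0.0149), and Nbr1 and Map1lc3b fell by 1.51 and 1.32 (adjusted p = 0.004 and 0.0438). The fall of Map1lc3b was lost without any 1 of the untreated and LPS arrays (0.0921 to 0.176), and the rise of Sqstm1 without LPS replicate 1 (0.0587) or either untreated array (0.0504 and 0.0719). In LPS+USP7i against LPS, Gabarapl1, a Gabarap-type ubiquitin-like protein, rose by 2.11, the receptors Sqstm1 and Nbr1 by 1.56 and 1.55, and Atg12 by 1.23 (adjusted p = 0.0139, 0.0327, 0.0115 and 0.0126). With only the 2 groups compared none of the 4 passed, and Sqstm1 missed with the replicate block (0.056) and without any 1 array as well. Against untreated cells, Sqstm1, Optn and Trim21 were higher in LPS+USP7i by 3.24, 1.91 and 1.81 (adjusted p = 0.00697, 0.024 and 0.0368). That of Optn was lost without any 1 of the untreated and LPS+USP7i arrays (0.075 to 0.116), and that of Trim21 with the block (0.0719), with only the 2 groups compared (0.096) and without any 1 array except LPS+USP7i replicate 1. There Atg7 fell by 1.08 (adjusted p = 0.00793, but 0.0521 without untreated replicate 2), while its second probe did not pass, at -0.51 (0.0711).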

How the data were processed

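RNA of 6 samples, 2 in each of 3 groups, was read on 1-colour arrays. Per the file headers, the intensity values come from Agilent Feature Extraction 10.7.3.1. The deposited table holds log2 values that the authors quantile-normalized with limma, with Pearson r of 0.983 to 0.989 to the log2 signals and column medians of 5.07 to 5.10. Its background correction and any centring are not given in the sources used here, and it served as an alternative. Processed signals of 59305 spots were quantile-normalized on the log2 scale, outlier spots left out, and averaged per probe. All 6 arrays were fitted together (limma 3.58.1, R 4.3.3), with Benjamini-Hochberg adjustment over 55680 probes, and tested on simulated data. RefSeq named 26762 probes by accession, 3819 by symbol and 639 by synonym, and 24461 kept the file's name. Genes named were the members, part of each gene list, 4 of the 5 nearest profiles and, of the autophagy and vacuole list, up to 4 per comparison with the largest changes among those past the threshold. One gene counted in the interferon pathway list is not reported here. Members and lists were chosen with earlier results of these data known. The number of arrays limits the precision. Alternatives covered scaling, background, dim probes, outlier spots, the prior, the arrays fitted, the replicate block and how probes stand for a gene.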

Additional observations from a re-analysis of the deposited data

How the results depend on the processing

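All 8 members kept their direction in each comparison under the 15 refits tried. The count higher in LPS than in untreated cells was 7 to 8 with 1 array left out, 7 without LPS replicate 1, where Irgm2 missed (adjusted p = 0.0528), and 8 otherwise. The count lower in LPS+USP7i than in LPS, 4, became 8 with normexp background correction and 8 with dim probes left out. It was 0 in limma with only the 2 groups compared and 0 with the replicate number as a block, where 8 of 8 had an unadjusted p under 0.05. With 1 array left out it was 0 to 2, the 2 without LPS+USP7i replicate 2, and 6 to 8 had an unadjusted p under 0.05. The count higher in LPS+USP7i than in untreated cells, 8, became 3 with only the 2 groups compared, 5 with the replicate block and 1 to 5 with 1 array left out. Fewer arrays leave a lone sample, assumed to vary like the other groups, and fewer residual degrees of freedom. For a comparison of 2 groups, leaving out an array of the remaining group gives the same fit as those 2 groups alone. Such settings, here and for the genes named above, are therefore not separate checks. For the other settings the cause was not tested.

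Deviations of arrays with the same replicate number correlated at 0.468, 0.422 and 0.398 across 20705 probes, but 2 pairs and labels of independent experiments do not establish pairing. In each group the summed neutrophil marker signal was higher in replicate 2, and that of B cell markers lower. For neutrophil markers it was 5199 and 6799 in untreated cells, 5751 and 11100 in LPS, and 6172 and 9431 in LPS+USP7i. For B cell markers it was 1057 and 668.5, 1153 and 532.7, and 714.9 and 314.5 in that order. The neutrophil markers did not move as 1 set. S100a8, S100a9 and Elane were higher in replicate 2 in each group, whereas Ly6g and Mpo were lower in replicate 2 in each group. The replicate number is also the column on the slide, so both cannot be told apart. All arrays share 1 slide and 1 scan, so no such block was fitted. The row on the slide follows treatment, and both cannot be told apart.

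Over all genes, calls lower in LPS+USP7i than in LPS went from 1485 to 2373 with normexp, 2360 without dim probes, 0 with only the 2 groups compared and 0 to 1186 with 1 array left out. Those higher in LPS went from 2775 to 12150 with 75th percentile scaling and 1138 to 2583 with 1 array left out. Those higher in LPS+USP7i than in untreated cells went from 2144 to 12182, to 1347 with only the 2 groups compared and 474 to 1997 with 1 array left out. Of the calls, 75th percentile scaling made 75.01% higher in LPS in place of 38.4%, and 78.4% higher in LPS+USP7i against untreated cells in place of 41.4%.

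Of the log2 differences of named genes, 1805 kept direction and side of the threshold, 285 lost the call, 101 gained it and 8 changed sign. Under 75th percentile scaling Irf9 turned to -0.12 in LPS+USP7i minus LPS and Gsdmd to 0.10 in LPS+USP7i minus untreated. With 1 array left out, LPS+USP7i minus LPS ran from -0.30 to 0.026 for Usp7, -0.15 to 0.68 for Ifnb1 and -0.14 to 0.20 for Ifng, which was not above background. LPS+USP7i minus untreated ran from -0.05 to 0.99 for Gbp9 and -0.20 to 0.67 for Aim2.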
